A study of Mus musculus with 16 samples.

Results

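Ribosome biogenesis genes were followed in LSK cells of mouse bone marrow. These cells lack lineage markers, carry Sca-1 and c-Kit on their surface, and include blood stem cells and early progenitors. The set was a fixed list of 52 genes of the nucleolus, of RNA polymerase I and of ribosome assembly, together with Myc, each matched by its symbol among the 53342 genes of the tables. All 52 were found once and all 52 were among the 16482 genes tested. The 4 groups were wild-type and Gata2 +9.5(Ets)-/- mice (called the mutant), each given PBS or 250 mg/kg 5-fluorouracil (5-FU), with marrow taken 10 days later. The mutant carries, on both alleles, a single-base C-to-T transition at the Ets motif of the +9.5 enhancer of Gata2, a gene for a transcription factor of blood stem cells. All mice were on the C57BL/6J background, without other alleles named, and were 8 to 14 weeks old. There were 5 wild-type and 5 mutant libraries after PBS and 3 of each genotype after 5-FU, each from 3000 to 10000 sorted cells. The labels do not say that the replicates were separate mice, so each p measures the spread between these samples, which may be technical.

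Ribosomes are built in the nucleolus. RNA polymerase I transcribes one long precursor of ribosomal RNA, small nucleolar ribonucleoproteins (snoRNPs) guide its chemical modification, and large protein assemblies cut and fold it into the small and the large subunit. The transcription factor MYC activates many genes of this pathway, and blood stem cells that enter the cell cycle are known to raise their ribosome production.

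Total expected counts ran from 19370153 to 28883365 per library. Immunoglobulin genes, a product of plasma and B cells, held 6.37 to 44.24% of counts in wild-type PBS, 3.67 to 50.17% in mutant PBS, 0.04 to 0.33% in wild-type 5-FU and 5.69 to 26.57% in mutant 5-FU. The summed level of 8 plasma cell markers was far lower in wild-type 5-FU than in the other groups, which overlapped, at 3129 to 64787 CPM (counts scaled to the TMM-adjusted library size) in wild-type PBS, 1557 to 74104 in mutant PBS, 137 to 376 in wild-type 5-FU and 2268 to 19310 in mutant 5-FU, with none of the 8 at 0 throughout a group. After 5-FU in wild type, 8 of 8 plasma cell, 8 of 8 B cell, 7 of 8 T and NK cell, 5 of 10 monocyte and granulocyte and 4 of 8 erythroid markers fell, with 2 erythroid markers higher, by edgeR at an adjusted p under 0.05. In the mutant 0 of these passed as lower and 2 erythroid markers rose. Yet 8 of the 10 monocyte and granulocyte markers lay below 0 there and 2 above, with a median of -2.88. Of the 10, 7 had an unadjusted p under 0.05 by edgeR. Their sum was 5442 to 27550 CPM in mutant PBS and 1107 to 1336 in mutant 5-FU. An unadjusted p under 0.05 was also found for 3 B cell (all 8 below 0), 3 T and NK cell (4 below 0, 4 above) and 0 plasma cell markers. All 11 stem and progenitor markers, among them Kit and Ly6a for the sorted c-Kit and Sca-1, were detected in every group. Of the 11, Slamf1 (3.11 on the log2 scale), Gata2 (1.48) and Mecom (1.35) rose and Flt3 (-1.78) fell after 5-FU in wild type, and Slamf1 (1.98) rose and Flt3 (-4.13) and Cd34 (-1.56) fell in the mutant. Their sum was 2809 to 5154 CPM in wild-type PBS, 2414 to 4525 in mutant PBS, 2012 to 2409 in wild-type 5-FU and 1553 to 1870 in mutant 5-FU. The part of other cell types in the results that follow was not tested beyond the covariate fits given with them. In bulk RNA, fewer cells of a type and less RNA per cell cannot be told apart.

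Per transcript length, Npm1 and Ncl led the set. In TPM, the authors' transcript share, which compares genes per length, Npm1 (nucleophosmin, a chaperone of the nucleolus) averaged 382 in wild-type PBS and Ncl (nucleolin, which binds ribosomal RNA and its genes) 245. Nop56, a core protein of the box C/D snoRNPs, followed at 187 TPM and Myc at 155 TPM. At the other end stood Utp20 at 4.82 and Noc3l at 3.21 TPM, a scaffold and an assembly factor of the subunits. Npm1 also led in the other groups, at 450 TPM in mutant PBS, 1126 in wild-type 5-FU and 664 in mutant 5-FU. TPM shares are set by the immunoglobulin transcripts too, and are given here to order genes within a group.

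The edgeR test called members in the 5-FU response of wild-type LSK cells and in none of the other comparisons. After 5-FU, 5 of 52 members (9.62%) were higher and 0 lower by edgeR's quasi-likelihood test at an adjusted p under 0.05, where 14.9% of all genes were called, 5.55% higher and 9.31% lower. The share of members called higher (9.62%) was above that of all genes (5.55%), while 0 were called lower (9.31% of all genes). With higher and lower calls counted as one, the members' share was below that of all genes (9.62% against 14.9%). DESeq2 called 16, all higher, with 27.9% of all genes called. The 5 were Utp20, Heatr1, Ddx10 and Utp14a, which act in the processome that assembles the small subunit, and Ddx21, an RNA helicase of the nucleolus. The median log2 difference of the 52 was 0.63, against -0.11 for all genes, and 47 of 52 lay above 0, as did 45.4% of all genes. In 34 members (65.4%) every 5-FU library lay above every PBS library, which held for 16% of all genes. No member had every 5-FU library below every PBS library (15.8% of all genes). All libraries were taken 10 days after injection, so the course of the response in time was not measured.

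**Figure D1:**
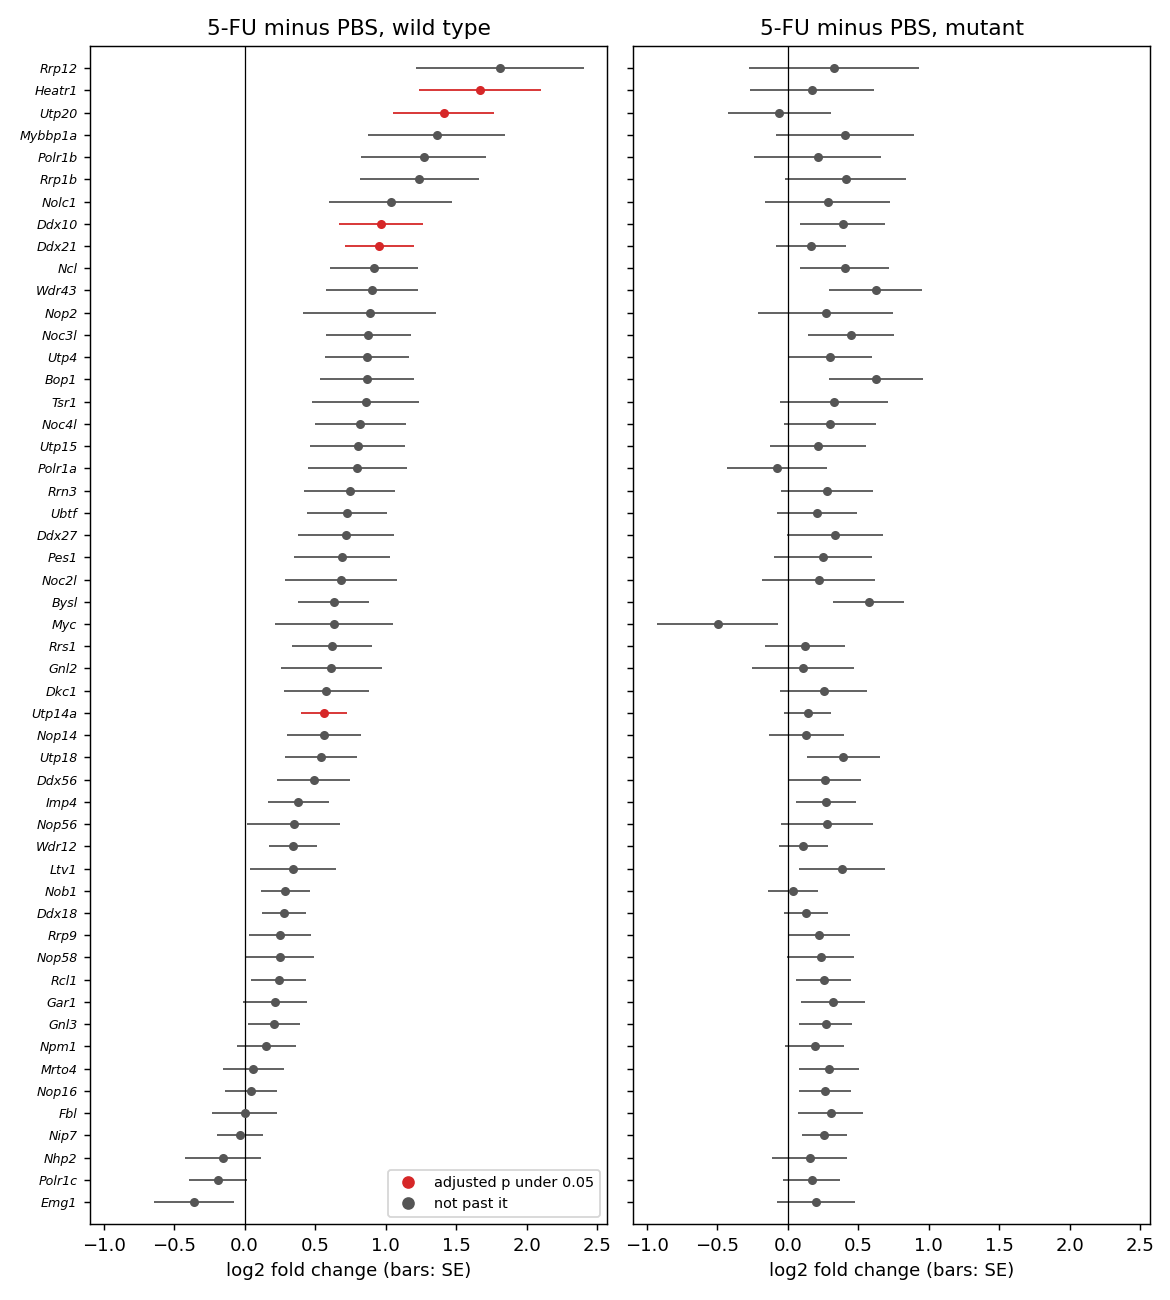
Log2 fold change of each of the 52 genes between 5-FU and PBS (x axis; points with SE bars) in wild type (left) and mutant (right), in the order of the wild-type value, with red points for an adjusted p under 0.05. In wild type 47 of 52 points lie above 0 and 5 are red; in the mutant 49 lie above 0 and none is red, and the points spread less.

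Heatr1 encodes a scaffold of the small subunit processome that also aids transcription by RNA polymerase I. It stood at 29.0, 23.3, 25.6, 37.1 and 55.9 CPM in wild-type PBS replicates 1 to 5 and at 96.2, 156 and 75.0 CPM in wild-type 5-FU replicates 1 to 3. The groups did not overlap, and replicate 5 was the highest of the PBS libraries. The log2 difference was 1.67 ± 0.44 (SE; adjusted p = 0.0205, edgeR). Heatr1 lies on chromosome 13 (12395027 to 12440289, plus strand, GRCm38), and an exon of it overlaps one of Lgals8 on the opposite strand.

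Utp20, another large scaffold of the processome, stood at 14.9, 8.5, 12, 21.8 and 25.1 CPM after PBS and at 41.5, 62.5 and 27.7 CPM after 5-FU in wild type. Replicate 3 after 5-FU was the closest to PBS. The difference was 1.41 ± 0.36 (adjusted p = 0.018, edgeR; chromosome 10, 88746607 to 88826804, minus strand).

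Ddx21, which binds both the ribosomal RNA genes and snoRNAs, stood at 60.5, 71.1, 55.0, 84.0 and 98.7 CPM after PBS and at 121, 170.0 and 139 CPM after 5-FU. All 5-FU libraries were above the PBS libraries, with a difference of 0.96 ± 0.25 (adjusted p = 0.0195, edgeR; chromosome 10, 62580251 to 62602281, minus strand). Ddx10, a helicase of the processome, averaged 36.2 ± 10.3 CPM (SD, n = 5) after PBS and 70.8 ± 11.3 (n = 3) after 5-FU, a difference of 0.97 ± 0.30 (adjusted p = 0.0404, edgeR; chromosome 9, 53098635 to 53248053). Utp14a, which stimulates a helicase at the same assembly, averaged 29.4 ± 2.41 against 43.5 ± 8.24 CPM, with the smallest rise of the 5, 0.56 ± 0.17 (adjusted p = 0.0332, edgeR; chromosome X, 48256862 to 48282453). Its PBS libraries were also the most even of all members in wild type, with an SD of 0.12 on the log2 scale.

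The number of calls moved with single libraries. Without wild-type 5-FU replicate 2 the edgeR test called 0 members and 3.06% of all genes, without replicate 1 it called 1 and 4.15%, and without replicate 3 it called 3 and 7.97%. Without wild-type PBS replicate 1 it called 3 members and 10.4% of all genes, without replicate 2 it called 3 and 9.28%, and without replicate 5 it called 11 and 19.8%. The calls over all genes moved in the same fits. With the immunoglobulin share as a covariate 0 members and 4.13% of all genes were called, and the members' median was 0.05. With the log2 of that share (added after the data were seen) the direction turned, with a members' median of -0.59, Heatr1 at -1.25 and Utp20 at -0.87, and 0 members and 0.133% of all genes called. No wild-type 5-FU library reaches the share of any other library, so a low share and that group cannot be told apart. Without the PBS libraries of the highest share (replicate 3 of each genotype) and mutant 5-FU replicate 1, an alternative added after the data were seen, 22 were called, all higher, against 23.5% of all genes called in either direction.

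The promoters of Utp20, Heatr1 and Ddx21, the members with the smallest p, are shown with that of Rrn3, the member with 2 matches to the motif, chosen after they were seen. Rrn3 encodes the factor that brings RNA polymerase I to its promoter. Each runs from 250 bases before to 50 bases after the RefSeq start (GRCm38.p6), on the strand of the gene. Capitals mark CACGTG, the E-box that MYC and MAX bind, which reads the same on both strands; overlapping matches were allowed.
Utp20 (chr10:88826765-88827064, minus strand): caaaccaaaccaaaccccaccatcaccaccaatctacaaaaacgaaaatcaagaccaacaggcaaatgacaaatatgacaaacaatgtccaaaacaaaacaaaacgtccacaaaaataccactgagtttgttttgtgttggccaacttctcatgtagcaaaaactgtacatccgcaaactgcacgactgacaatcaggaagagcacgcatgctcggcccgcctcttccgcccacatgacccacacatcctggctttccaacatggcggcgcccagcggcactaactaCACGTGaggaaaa
Heatr1 (chr13:12395125-12395424, plus strand): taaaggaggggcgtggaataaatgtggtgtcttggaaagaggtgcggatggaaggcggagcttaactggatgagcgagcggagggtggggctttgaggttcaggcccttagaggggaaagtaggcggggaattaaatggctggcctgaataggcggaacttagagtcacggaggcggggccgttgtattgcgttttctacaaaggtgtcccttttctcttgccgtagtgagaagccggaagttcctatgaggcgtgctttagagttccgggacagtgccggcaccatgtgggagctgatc
Ddx21 (chr10:62602249-62602548, minus strand): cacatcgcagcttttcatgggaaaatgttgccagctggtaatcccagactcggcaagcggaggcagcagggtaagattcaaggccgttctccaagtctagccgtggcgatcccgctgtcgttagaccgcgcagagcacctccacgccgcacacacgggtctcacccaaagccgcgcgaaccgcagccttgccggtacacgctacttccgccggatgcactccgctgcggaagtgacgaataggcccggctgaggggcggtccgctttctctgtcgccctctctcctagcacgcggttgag
Rrn3 (chr16:13780449-13780748, plus strand): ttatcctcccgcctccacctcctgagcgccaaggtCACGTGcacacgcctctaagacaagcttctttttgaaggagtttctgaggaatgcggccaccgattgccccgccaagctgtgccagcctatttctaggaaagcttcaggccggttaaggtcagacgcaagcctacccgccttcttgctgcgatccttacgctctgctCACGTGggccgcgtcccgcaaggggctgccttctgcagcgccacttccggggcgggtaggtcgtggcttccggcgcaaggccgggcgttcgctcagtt
Utp20 held 1 match, beginning 37 bases after the start, and Rrn3 held 2, beginning 215 and 48 bases before it. Heatr1 and Ddx21 held none in this window. RefSeq promoters were given for 45 of the 52 members, and 11 of the 45 (24.4%) held the motif in at least 1 promoter, against 8.1% of the 27025 genes in the table. The 11 had a median log2 difference of 0.86 between 5-FU and PBS in wild type (from 0.34 to 1.41), and the 34 without it 0.56 (from -0.36 to 1.67). Of the 11, all but Imp4 (1622 bases) had a transcript length of 2099 bases (Ltv1) or more. The wild-type difference followed length, as described below, and the part of length in this split was not tested. A match describes these letters and shows no binding.

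Among the genes of RNA polymerase I, Polr1b, a core subunit, averaged 40.8 ± 19.3 CPM in wild-type PBS and 98.7 ± 16.0 CPM in wild-type 5-FU. Its libraries did not overlap between these groups, at 14.6 to 61.6 against 87.8 to 117 CPM, but the difference of 1.27 ± 0.44 was not past the threshold (adjusted p = 0.0612, edgeR). Polr1a, the largest subunit, had 0.80 ± 0.35 (adjusted p = 0.114), with 30.7 CPM in 5-FU replicate 3 inside the PBS range. Ubtf, which keeps ribosomal RNA genes open, had 0.73 and Rrn3 0.75, both without overlap. Polr1c, a small subunit shared with RNA polymerase III, had -0.19. So 0 of the 5 genes were called, 4 of the 5 had an unadjusted p under 0.05, and the median was 0.75.

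Of the abundant nucleolar proteins, Ncl stood at 690.1, 567, 366, 693 and 618 CPM in wild-type PBS and at 1038, 1363 and 926 CPM in wild-type 5-FU. The groups did not overlap, and the difference was 0.92 ± 0.31 (adjusted p = 0.0563, edgeR). Mybbp1a, a nucleolar protein that also binds transcription factors, had 1.36 and Nolc1, a chaperone of snoRNPs, 1.04, likewise without overlap and past no threshold. Npm1 stood at 492, 689, 787, 531 and 469 CPM after PBS and at 614, 572 and 795 CPM after 5-FU. Its groups overlapped and its difference was 0.15 ± 0.21 (adjusted p = 0.606).

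The snoRNP proteins differed less. Fbl, the methyltransferase of the box C/D particles, averaged 81.5 ± 17.6 CPM after PBS and 81.5 ± 27.2 CPM after 5-FU in wild type, with a difference of 0.00 ± 0.23 (adjusted p = 0.999, edgeR). Nop58, Rrp9 and Nop56 had 0.25, 0.25 and 0.35, all with overlapping libraries. In the box H/ACA particles, Dkc1, the pseudouridine synthase, had 0.58 without overlap, while Gar1 and Nhp2 had 0.22 and -0.15. None of the 7 was called.

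In small subunit assembly, 4 of 18 members rose, 0 fell and the other 14 did not pass (5.55% of all genes were higher and 9.31% lower), with a median of 0.72. The largest value of all members was that of Rrp12, which aids the export of new subunits, with 16.1, 6.8, 7.3, 25.9 and 35.9 CPM after PBS and 54.9, 83.2 and 56.7 CPM after 5-FU. It had 1.81 ± 0.59 and an adjusted p of 0.0505 (edgeR), just short of the threshold, and the PBS libraries varied by more than for any other member (SD 1.08 on the log2 scale). The lowest value belonged to Emg1, a methyltransferase of the small subunit RNA, at -0.36 (adjusted p = 0.357). In large subunit assembly 0 of 16 were called and the median was 0.62. Rrp1b had 1.24, and Bop1 and Pes1, partners in a complex that processes the large subunit RNA, had 0.87 and 0.69. Nip7, Nop16 and Mrto4 lay between -0.03 and 0.06.

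Myc itself was at 246, 268, 115, 431 and 423 CPM in wild-type PBS and at 439, 434 and 507 CPM in wild-type 5-FU. PBS replicates 4 and 5 were close under the 5-FU libraries, and replicate 3 was far below. The difference was 0.63 ± 0.42 (adjusted p = 0.271, edgeR).

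**Figure D2:**
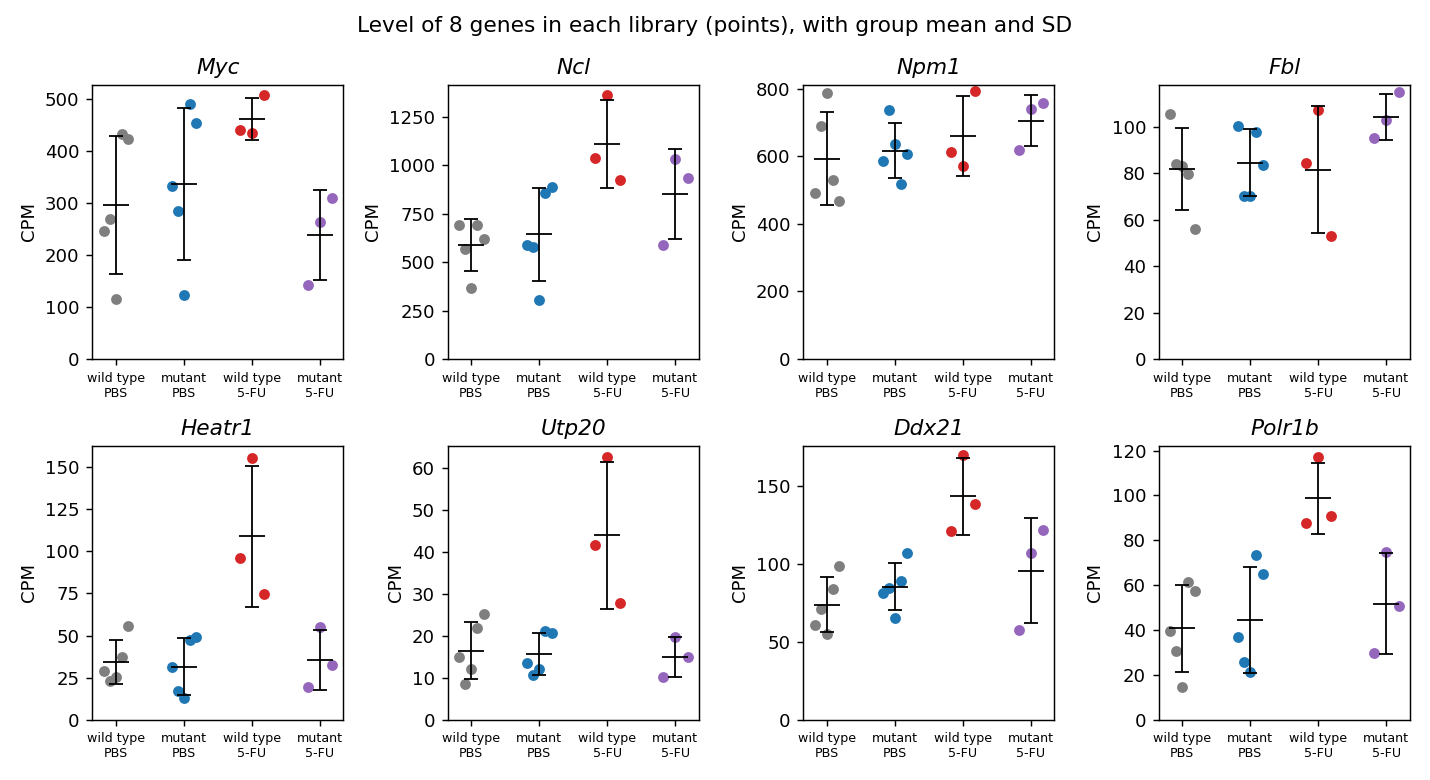
CPM (y axis, from 0) of 8 genes in each library (points), by group, with the group mean and SD in black. Heatr1, Utp20, Ddx21, Polr1b and Ncl are highest in the wild-type 5-FU group, with no overlap with wild-type PBS, while Npm1 and Fbl overlap among all groups.

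The size of the wild-type difference followed transcript length. Across the 52 members the log2 difference correlated with the log2 of the effective length (the mean over libraries of the authors' value, which weighs a gene's isoforms by their abundance) with a Pearson r of 0.80 and a Spearman rho of 0.83. These genes share the same libraries, so the values are a description. With the longest annotated transcript in place of the effective length r was 0.51 and rho 0.59. The 17 shortest members (622 to 1772 bases) had a median difference of 0.21 and 12 of the 17 lay above 0. The 17 longest (2685 to 4610 bases) had a median of 0.90 and all 17 lay above 0. Over all 16482 genes r was 0.37 and rho 0.42, with medians of -0.58 among genes as short as the 17 shortest and 0.32 among genes as long as the 17 longest. In both classes the members' median was above that of all genes, within this limit. With the trend with length removed (added after the data were seen) edgeR called 7 members, all higher, with a members' median of 0.47. Of the 7, Utp20, Heatr1 and Ddx10 were among the 5 above. The share and median of all genes in that fit are not given here, so the 7 cannot be read against them. Ncl, Noc4l, Mybbp1a and Utp4 passed there, at 0.75, 0.82, 1.20 and 0.75, while Ddx21 (0.53, adjusted p = 0.0669) and Utp14a (0.32, adjusted p = 0.23) did not; over 25 alternatives their adjusted p ran from 0.00109 to 0.631 and from 0.00433 to 0.54.

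**Figure D3:**
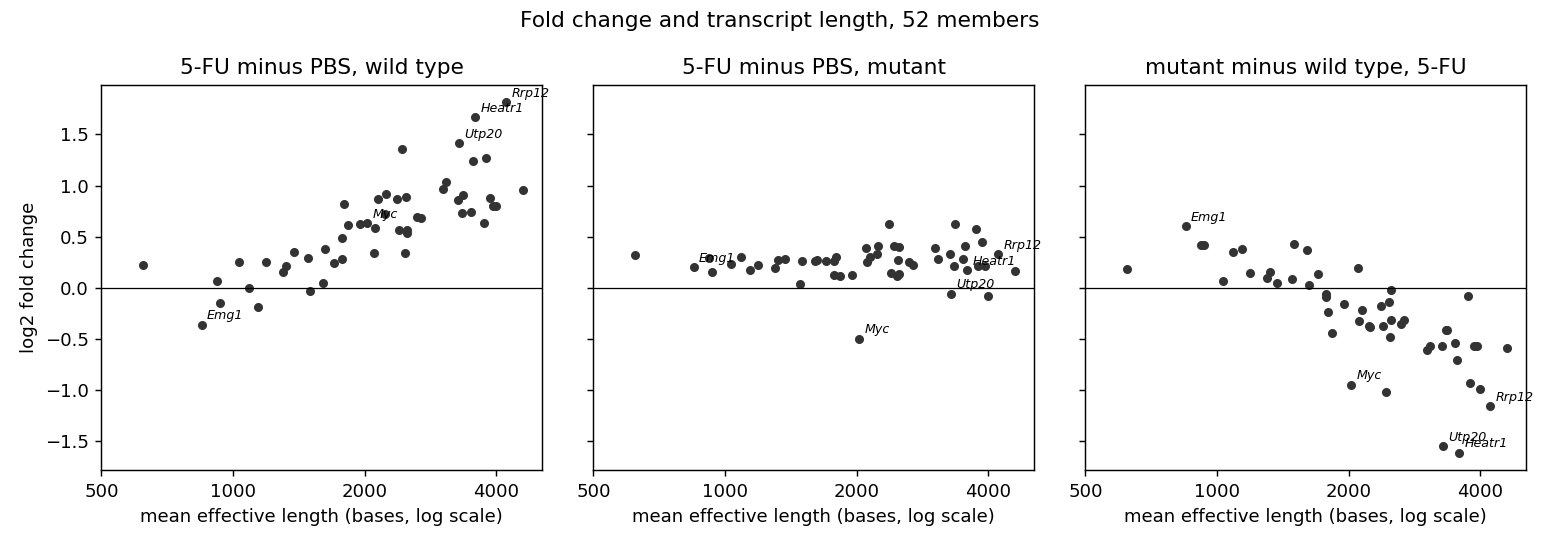
Log2 fold change (y axis) against the mean effective transcript length in bases (x axis, log scale) for the 52 members, one point each, in 3 comparisons. The points climb with length for 5-FU in wild type (Pearson r 0.80), show little slope for 5-FU in the mutant (r 0.10), and descend for mutant against wild type after 5-FU (r -0.77).

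In the mutant, the response to 5-FU was small for the members. The edgeR test called 0 of 52 (1 had an unadjusted p under 0.05), where 2.2% of all genes were called, 0.837% higher and 1.36% lower. DESeq2 called 0 members, and its share of all genes is not given here. The median difference was 0.26, against -0.03 for all genes, and 49 of 52 lay above 0. In no member were all 5-FU libraries above, or all below, the mutant PBS libraries, which held for 5.05% and 4.94% of all genes. The largest values were those of Bop1 (0.63), Wdr43 (0.62) and Bysl (0.58, adjusted p = 0.333), which acts in the maturation of the small subunit. Heatr1 stood at 19.4, 54.9 and 32.4 CPM after 5-FU, inside the mutant PBS range of 12.8 to 48.9 CPM but for replicate 2. Utp20 stood at 10.2, 19.8 and 15.0 CPM, against 10.6 to 21.2 CPM after PBS. Myc had the lowest value of the members, with 143, 263 and 310 CPM after 5-FU against 332, 285, 124, 489 and 453 CPM after PBS, a difference of -0.50 ± 0.43 (adjusted p = 0.72, edgeR).

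Mutant 5-FU replicate 1, with an immunoglobulin share of 26.57%, was the lowest of the 3 mutant 5-FU libraries in 51 of 52 members and in 37.8% of all genes. Replicates 2 and 3 were both above all mutant PBS libraries in 25 members and in 12.2% of all genes. Without replicate 1 the median difference was 0.43 and edgeR still called 0. Over the 8 fits that each leave out 1 library, 156 to 405 of all genes were called. The length relation seen in wild type was weak here, with r = 0.10 and rho = 0.14 across members, and medians of 0.26 in the 17 shortest and 0.28 in the 17 longest.

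After 5-FU, the mutant was compared with wild type. The edgeR test called 0 of 52 members (4 with an unadjusted p under 0.05), where 1.95% of all genes were called, 1.49% higher and 0.461% lower in the mutant. DESeq2 called 2 of 52, Utp20 and Heatr1, both lower, with 7.94% of all genes called in either direction, a larger share than that of the members. The median difference was -0.28, against 0.07 for all genes, and 35 of 52 lay below 0. Markers of other cells moved with this comparison: 6 of 8 plasma cell, 5 of 8 B cell, 4 of 8 T and NK cell, 1 of 10 monocyte and granulocyte and 1 of 8 erythroid markers were higher in the mutant and 0 lower, while 2 of 11 stem and progenitor markers were lower. In 14 members (26.9%) every mutant library was below every wild-type library, which held for 18% of all genes. In 2 members, Polr1c and Emg1, all were above, which held for 21.5% of all genes. Heatr1 had -1.61 ± 0.51 (adjusted p = 0.116, edgeR) and Utp20 -1.55 ± 0.42 (adjusted p = 0.0662). For Utp20 the mutant libraries (10.2 to 19.8 CPM) were all below the wild-type libraries (27.7 to 62.5 CPM). Rrp12 had -1.16, Mybbp1a -1.02 and Polr1a -0.99, each with separate groups. Myc had -0.95 ± 0.48 (adjusted p = 0.299), at 143 to 310 against 434 to 507 CPM. Polr1b had -0.93 and Ncl -0.38. Toward the mutant stood Emg1 at 0.61, Nip7 at 0.43, Mrto4 and Nhp2 at 0.42, and Fbl at 0.35, while Npm1 had 0.10; none of these passed the threshold.

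This comparison also followed length, with r = -0.77 and rho = -0.84 across the 52 members and r = -0.35 over all genes. The 17 shortest members had a median of 0.16, with 16 above 0, and the 17 longest -0.57, with 0 above 0. With the length trend removed edgeR called 1 of 52 members and 1.91% of all genes, so the members' share was near that of all genes. The 1 was Utp20 (-1.19, adjusted p = 0.0496, with 0.00256 to 0.723 over 22 alternatives), and the members' median was -0.16. A covariate for the immunoglobulin share turned the median to 0.12, and one for how the sample codes are written (with or without a leading zero) to 0.25. With the log2 of the share the median was 0.83, with Heatr1 at 1.07 and Utp20 at 0.55, and 0 members and 0 of all genes were called. All mutant 5-FU codes have a leading zero and no wild-type 5-FU code has, so after 5-FU the writing and the genotype cannot be told apart between samples.

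The difference between the genotypes in the response to 5-FU was tested as an interaction. By edgeR it passed for 0 of 52 members (3 with an unadjusted p under 0.05), where 0.589% of all genes were called, 0.558% higher and 0.0303% lower in the mutant. DESeq2 called 0 members too, and its share of all genes is not given here. The median was -0.40, against 0.08 for all genes, and 40 of 52 lay below 0. The other 12 lay above 0, up to 0.56. Heatr1 had -1.5 ± 0.63 (adjusted p = 0.383, edgeR), Rrp12 -1.49, Utp20 -1.47 ± 0.52 (adjusted p = 0.266), Myc -1.13 ± 0.60 (adjusted p = 0.515) and Ddx21 -0.79 (adjusted p = 0.428). A difference between the genotypes in the response was thus not shown for any member. The share, the code writing and the log2 of the share as covariates turned the median to 0.14, 0.16 and 0.88.

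Under PBS no member passed between the genotypes. The edgeR test called 0 of 52 members (1 with an unadjusted p under 0.05, Nob1 at 0.34), with 0.0182% of all genes higher and 0% lower. DESeq2 and the fit that pairs same-numbered replicates called 0 members as well, with shares of all genes not given here. All 52 overlapped between genotypes, where 0.322% of all genes lay wholly above and 0.303% wholly below in the mutant. Values ran from -0.14 (Noc3l) to 0.34 (Utp4), with a median of 0.10 against -0.02 for all genes, and 42 of 52 lay above 0, as did 46.4% of all genes. All 8 T and NK cell markers had values below 0 (median -1.61, 5 with an unadjusted p under 0.05, 0 called). These sizes depend on few counts, as the 8 summed to 6.02 to 26.64 CPM in wild-type PBS and 3.01 to 7.49 in mutant PBS. The part of T and NK cells in the members' values was not tested. Myc had 0.18 ± 0.37, Ncl 0.13, Npm1 0.06, Fbl 0.05, Polr1a -0.12 and Polr1b 0.13, each with an adjusted p of 1.

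Within the PBS groups the members varied from library to library, with a median SD of 0.45 in wild type and 0.49 in the mutant on the log2 scale. Replicate 3 held the lowest value of the group for 37 members in wild type (34.9% of all genes) and for 44 in the mutant (36% of all genes). Replicate 3 of one or the other was the lowest of all 16 libraries for 40 (32.9% of all genes). Those libraries had the highest immunoglobulin shares, 44.24 and 50.17%. The median deviation of the members from their mean over 16 libraries was -0.81 and -0.86 there, on the log2 scale. It was -0.20 and -0.16 in wild-type replicates 1 and 2 and 0.07 and 0.03 in replicates 4 and 5, and -0.14, -0.08, 0.22 and 0.19 in mutant replicates 1, 2, 4 and 5. Wild-type 5-FU replicates 1 to 3 had 0.32, 0.54 and 0.54 and the mutant ones -0.17, 0.42 and 0.35. Replicates 4 and 5, whose codes have no leading zero, were both above replicates 1 to 3 in 25 members in wild type (19.6% of all genes) and in 33 in the mutant (24.8%). Exceptions ran the other way in replicate 3: Emg1 was highest there in both PBS groups, at 228 and 211 CPM, as was Nhp2, at 168 and 165 CPM. The part of the immunoglobulin-rich cells and of the code groups in these levels was not tested beyond the covariate fits.

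**Figure D4:**
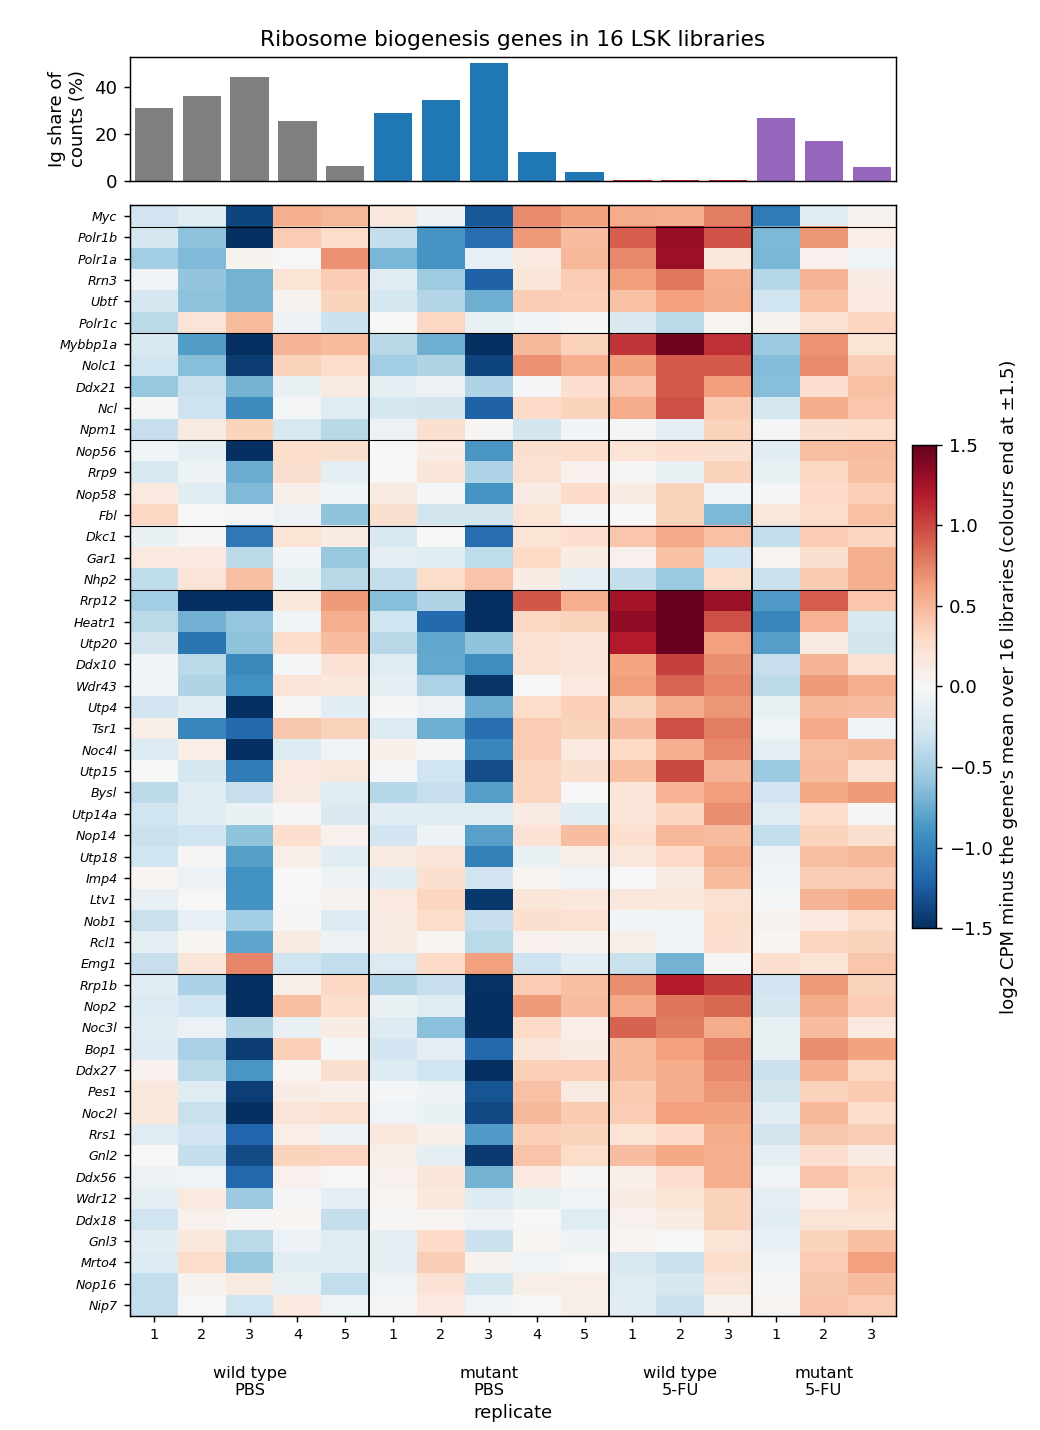
Heat map of log2 CPM minus each gene's mean over 16 libraries, with the 52 genes in rows (Myc, RNA polymerase I, abundant nucleolar proteins, box C/D, box H/ACA, small subunit, large subunit, from top to bottom) and libraries in columns by group, under bars of the immunoglobulin share of counts in percent. PBS replicates 3 are blue in most rows and stand under the tallest bars, and the wild-type 5-FU libraries are red in most rows and have shares of 0.04 to 0.33%.

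Among libraries that share the digits of their code, wild-type 5-FU replicate 3 lay above PBS replicates 4 and 5 for 46 of 52 members (36.6% of all genes) and below both for 2 (39.9%). The median difference there was 0.46, against -0.07 for all genes, and edgeR called 0 members and 1.18% of all genes, with a single 5-FU library that is assumed to vary like the PBS libraries. In the mutant, the 3 5-FU libraries were all above PBS replicates 1 and 2 of the same digits for 7 members (16.9% of all genes) and all below for 0 (18.4%), with a median of 0.25 against 0.03 for all genes.

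Further genes of the pathway, listed for their function, were set beside the members for 5-FU against PBS in wild type, where 5.55% of all genes were higher and 9.31% lower. Of 32 further genes of small subunit assembly 5 rose and 0 fell (median 0.48), among them Nol10 (1.16, adjusted p = 0.0147, edgeR), Pdcd11 (0.95), Tbl3 (0.83) and Nat10, an acetyltransferase of ribosomal RNA (1.23). Of 34 of large subunit assembly 3 rose and 0 fell (median 0.30), which were Wdr18 (0.70), Sdad1 (1.17) and Nol9 (0.99). Of 14 of the RNA exosome and its helpers, which trim the precursor, Dis3 (1.16) and Skiv2l2 (1.3) rose and 0 fell (median 0.06). In 10 further RNA polymerase I genes 0 passed (median 0.00), with Polr1e at 0.76 and Znrd1 at -1.10, and in 9 snoRNP assembly genes 0 passed, with Nop10 at -1.17 and Shq1 at 0.73. In the mutant 0 genes of these 5 lists passed edgeR's threshold, with an unadjusted p under 0.05 for 2 of small and 3 of large subunit assembly, nor did any between genotypes under PBS, after 5-FU or in the interaction.

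Partners and rivals of MYC were read as well. Of 10 genes of the network in wild type, 0 rose and 3 fell after 5-FU, beside the same shares of all genes. Mxd4, which encodes a repressor that competes with MYC for MAX, fell by 1.39 on the log2 scale, from 64.7 ± 41.3 CPM (SD, n = 5) to 24.6 ± 1.93 (n = 3; adjusted p = 0.035, edgeR). Replicate 3, with 44.24% immunoglobulin, held the most PBS counts before scaling, 1512 against 896 to 1268 in the others. The PBS mean and SD rest in part on that library, and a fit of Mxd4 without it is not given here. Mlx, a partner of the MXD proteins, fell by 0.67 (43.7 to 27.4 CPM; adjusted p = 0.029). Mycl fell by 4.07 (adjusted p = 0.0469), a size that depends on very few counts, 2, 0 and 8 after 5-FU against 12 to 65 after PBS. Mycn, a paralog of Myc, had 0.88 without overlap (adjusted p = 0.0986). In the mutant none of the 10 was called (5 with an unadjusted p under 0.05), with Mxd4 at -0.87, Mycl at -4.07 (adjusted p = 0.173) and Mycn at 0.89.

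Of 13 known MYC targets outside the nucleolus, 2 rose, 1 fell and 10 were not called after 5-FU in wild type (5.55% of all genes were higher and 9.31% lower). Cad (1.66, pyrimidine synthesis) and Ldha (1.07, lactate dehydrogenase) rose and Ccnd2 (-1.40, cyclin D2) fell. The median of the 13 was 0.23, with 9 above 0 and 4 below. Ldha also rose in the mutant (1.05, adjusted p = 0.0275). Of 18 proliferation genes 6 rose and 0 fell in wild type, where 5.55% of all genes were higher, with a median of 0.98, among them Top2a (1.05) and Bub1 (1.34). In the mutant 0 of the 18 were called (3 with an unadjusted p under 0.05), with a median of 0.31. Their summed level ran from 2014 to 3419 CPM in wild-type PBS, 1630 to 3919 in mutant PBS, 4963 to 5883 in wild-type 5-FU and 2427 to 4657 in mutant 5-FU, and was lowest in the same PBS replicate 3 libraries and in mutant 5-FU replicate 1. Its part in the members' levels was not tested.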

How the data were processed

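RNA of sorted cells (RNeasy Micro) became NuGEN Ovation Ultralow libraries, per the labels' protocols. The submitters' processing notes name RSEM 1.3.1, FastQC 0.11.2 and the builds mm10 and GRCm38. Aligner, annotation release, read filters and the strand setting of the counting: not given in the sources used here. Each deposited table holds, per the file headers, RSEM expected counts (not scaled to the library), TPM, FPKM and 2 transcript lengths for each gene and sample. FPKM, deposited by the authors, was not used; other deposited columns (length and effective length, in bases) served to describe length.

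Expected counts were rounded and filtered (filterByExpr, edgeR 4.0.16, minimum count 10), leaving 16482 of 53342 genes. Libraries were scaled by TMM (factors 0.508 to 1.37). The quasi-likelihood F test (robust, 1 mean per group, all 16 samples) gave p values, adjusted by Benjamini and Hochberg over all genes tested, with a threshold of 0.05; SE is the log2 difference over the square root of F. Alternatives used DESeq2 1.42.0, limma 3.58.1 on counts or on TPM, other scalings, covariates and subsets. The fit was also run on simulated counts with the same spread for all genes and no immunoglobulin differences between libraries. That run does not bear on how the fit handles these libraries. Planned for naming were Myc, Ncl, Npm1, Fbl, Polr1a and Polr1b, members past the threshold, and the 4 largest and 4 smallest values in each comparison. The 2 to 4 smallest p of each further list were added. Not every comparison prints all of these. Other members are named as examples of their role, chosen after their values were seen. Members and lists were chosen with earlier results of these data known. Coordinates are from GENCODE M21 (GRCm38), to which 53237 IDs matched without version. The exons of 21 members overlap another gene on the opposite strand, and 1 member has named pseudogenes (Mrto4), so their counts are less certain. Under PBS, deviations from the group mean correlated between same-numbered wild-type and mutant samples with r from 0.165 to 0.569 in all 5 pairs. The labels state no pairing. Same-numbered PBS libraries also share the writing of their codes, and replicates 3 have the highest immunoglobulin shares of both groups (44.24 and 50.17%). A pairing and these likenesses cannot be told apart.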

Additional observations from a re-analysis of the deposited data

Results flagged for a closer look

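In groups of 5, a library was marked where its gap to the nearest other library was over 0.71 of the group's range (Dixon's 95% value); 104 gene and group pairs were tested, chance marks about 1 in 20 of them, and 10 were marked, in 8 members. In wild-type PBS, replicate 3 was far below the others for Utp4 (24.8 CPM), Noc4l (22.9 CPM), Ltv1 (37.7 CPM), Imp4 (56.7 CPM) and Ddx56 (43.8 CPM). In mutant PBS, replicate 3 was far below for Rcl1 (65.3 CPM), Ltv1 (25.8 CPM) and Ddx56 (60.7 CPM). These libraries had immunoglobulin shares of 44.24 and 50.17%. In mutant PBS, Polr1c was far above the rest in replicate 2 (56.3 CPM) and Utp14a in replicate 4 (35.4 CPM).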

How the results depend on the processing

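For 5-FU in wild type, 5 members and 14.9% of all genes were called; the share of all genes under each alternative follows its count. Fewer passed with no filter on low counts (3, 6.18%), and 0 with the immunoglobulin share (4.13%), its log2 (0.133%, added after the data were seen) or code writing (6.14%) as a covariate, or within one code prefix (1.18%). More passed with RLE scaling (9, with 2557 of all genes), DESeq2 (16, 27.9%), limma-voom with sample quality weights (22, 42.4%), limma-trend on log2(TPM + 1) (48, 45.6%) or log2(TPM + 0.1) (39, 34.8%), immunoglobulin genes removed (9, 15.7%), the groups compared alone (8, 15.1%), without the 2 highest immunoglobulin shares of each PBS group (9, 15.2%) and without replicate 3 of both PBS groups and mutant 5-FU replicate 1 (22, 23.5%). On TPM the median of all genes shifted to 1.01 and 1.3, and the members' median lay 0.97 and 0.83 above it. Leaving out 1 library gave 0 to 11, with 3.06 to 19.8% of all genes. With the replicate number as a block 33 passed (32 higher, 1 lower; 44.4% of all genes), where same-numbered samples did not deviate together (r from -0.158 to 0.168). For the mutant against wild type after 5-FU, where 0 were called, DESeq2 called 2 (7.94% of all genes), limma-voom 11 (30.8%), the replicate block 3 (9.25%; r from 0.02 to 0.115, each sample best with its own number), the groups alone 4 (14.1%), the fit without the 2 highest PBS shares 6 (18.4%) and the fit with the length trend removed 1 (1.91%). For 5-FU in the mutant limma-voom, code writing as a covariate and the replicate block each called 1 (Bysl; 9.38%, 5.38% and 6.15% of all genes). In the other 2 comparisons each alternative called 0, the block included. The members' median turned to -0.001 under PBS without wild-type PBS replicate 3 (-0.001 to 0.238 over single libraries left out). It turned, after 5-FU between genotypes, to 0.119 (immunoglobulin share), 0.253 (code writing) and 0.825 (log2 share), for the interaction to 0.138, 0.162 and 0.875, and for 5-FU in wild type to -0.592 (log2 share). With the log2 share, 5-FU in wild type gave -0.871 for Utp20, -1.253 for Heatr1, -0.5 for Ddx21, -0.746 for Ddx10, -1.717 for Rrp12, -1.384 for Myc, -0.825 for Ncl, -1.427 for Polr1a and -1.187 for Polr1b, and the mutant against wild type after 5-FU gave 0.546 for Utp20, 1.072 for Heatr1, 1.035 for Polr1a and 0.842 for Myc. Myc also turned to -0.477 (5-FU in wild type, immunoglobulin share) and 0.03 (genotypes after 5-FU, code writing), and Polr1a to -0.234 (5-FU in wild type, same prefix). The cause was not tested.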
